A study of Mus musculus with 4 samples.

Results

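The promoters of the Wnt, Fgf, Bmp and Tgfb ligand genes were examined for dimethylation of lysine 9 of histone H3 (H3K9me2) in the mouse aortic medial layer. Members were taken from the promoter table by gene symbol alone: Wnt, Fgf, Bmp or Gdf followed by a number and, for Wnt and Bmp, an optional a or b, Tgfb1 to Tgfb3, and Inhb followed by a letter. The rule found 68 of the 26354 promoters, namely 21 Fgf, 19 Wnt, 11 Bmp, 10 Gdf, 4 Inhb and 3 Tgfb promoters on 19 chromosomes. Chromatin immunoprecipitation with sequencing (ChIP-seq) had been done in 2 independent experiments, v102 and v134, and each had a ChIP library for H3K9me2 and a library of its input chromatin, taken without antibody. All 4 libraries came from male C57Bl/6J mice that carried no transgene or treatment named in the labels, and the age and number of animals behind each experiment were not given in the sources used here. The aortic media was not cultured: fat, adventitia and endothelium had been stripped off by hand, and the tissue was fixed in formaldehyde. The p-values below therefore measure only the spread between these libraries, and cells left over from the other layers could contribute reads.

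H3K9me2 is laid down mainly by the paired methyltransferases encoded by Ehmt2 and Ehmt1 and is a repressive mark of facultative heterochromatin. Wnt proteins bind Frizzled receptors and Lrp5 or Lrp6 and act through β-catenin or other routes, Fgf proteins bind tyrosine kinase receptors with heparan sulfate or Klotho co-receptors, and the Tgfb superfamily (Tgfb, Bmp, Gdf and the inhibin β chains that form activins) signals through paired serine/threonine kinase receptors to Smad proteins. In the arterial wall these ligands are known for roles in smooth muscle proliferation, contractile differentiation, matrix deposition and calcification. Most of them are developmental genes whose promoters are rich in CpG, the dinucleotide at which DNA is methylated.

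Promoter sequence is shown first for members at both ends of the H3K9me2 range, because base composition went with the mark across the table. The lines give the 250 bases before the start site, 5′ to 3′ on the gene's strand, read from the GRCm38 genome. Capitals mark CpG, spelled CG, which reads the same on both strands and was searched without overlap with any other motif. Wnt8b, Fgf14 and Bmp4 had the highest H3K9me2/input ratios, and Wnt1 and Wnt5a were among the lowest, of the 27 members with at least 20 reads in each input library. Fgf10 and Fgf6, the members called above input, were added after their values were seen.
Wnt8b (chr19:44493222-44493471, plus strand): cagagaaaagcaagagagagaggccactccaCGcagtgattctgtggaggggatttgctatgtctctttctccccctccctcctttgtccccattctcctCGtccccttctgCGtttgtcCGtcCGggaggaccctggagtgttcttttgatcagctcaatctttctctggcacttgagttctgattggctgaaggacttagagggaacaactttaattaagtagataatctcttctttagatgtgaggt
Fgf14 (chr14:124677128-124677377, minus strand): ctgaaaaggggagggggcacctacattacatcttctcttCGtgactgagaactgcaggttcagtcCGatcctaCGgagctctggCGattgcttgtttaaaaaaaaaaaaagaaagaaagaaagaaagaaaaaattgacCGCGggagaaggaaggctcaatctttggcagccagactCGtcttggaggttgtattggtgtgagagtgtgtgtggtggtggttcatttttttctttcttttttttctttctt
Bmp4 (chr14:46390670-46390919, minus strand): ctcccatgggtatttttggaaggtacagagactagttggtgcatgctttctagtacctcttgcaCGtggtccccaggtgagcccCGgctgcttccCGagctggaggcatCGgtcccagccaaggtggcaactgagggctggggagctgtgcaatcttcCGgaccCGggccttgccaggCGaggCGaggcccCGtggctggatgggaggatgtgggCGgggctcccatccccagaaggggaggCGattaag
Wnt1 (chr15:98789607-98789856, plus strand): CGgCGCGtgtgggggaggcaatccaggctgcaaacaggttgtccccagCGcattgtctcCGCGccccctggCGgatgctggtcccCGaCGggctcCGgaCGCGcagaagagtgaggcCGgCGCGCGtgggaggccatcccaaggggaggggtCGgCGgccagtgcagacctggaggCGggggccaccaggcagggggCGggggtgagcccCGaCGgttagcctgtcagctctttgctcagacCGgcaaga
Wnt5a (chr14:28504500-28504749, plus strand): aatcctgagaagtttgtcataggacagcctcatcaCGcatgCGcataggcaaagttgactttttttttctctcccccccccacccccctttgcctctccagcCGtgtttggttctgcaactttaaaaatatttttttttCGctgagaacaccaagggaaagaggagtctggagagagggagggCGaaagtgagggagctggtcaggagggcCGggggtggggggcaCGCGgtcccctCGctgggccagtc
Fgf10 at the GENCODE start (chr13:118669541-118669790, plus strand): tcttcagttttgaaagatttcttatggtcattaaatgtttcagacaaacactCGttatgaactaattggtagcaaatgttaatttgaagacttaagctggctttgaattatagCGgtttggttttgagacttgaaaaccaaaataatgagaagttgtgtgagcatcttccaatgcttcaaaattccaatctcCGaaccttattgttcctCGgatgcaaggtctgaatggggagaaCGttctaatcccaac
Fgf10 at the RefSeq start (chr13:118714449-118714698, plus strand): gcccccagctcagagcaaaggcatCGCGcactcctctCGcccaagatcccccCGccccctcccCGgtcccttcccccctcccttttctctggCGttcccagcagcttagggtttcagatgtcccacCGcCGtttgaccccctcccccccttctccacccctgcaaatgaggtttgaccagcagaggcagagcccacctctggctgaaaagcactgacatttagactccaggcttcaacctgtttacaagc
Fgf6 (chr6:127015336-127015585, plus strand): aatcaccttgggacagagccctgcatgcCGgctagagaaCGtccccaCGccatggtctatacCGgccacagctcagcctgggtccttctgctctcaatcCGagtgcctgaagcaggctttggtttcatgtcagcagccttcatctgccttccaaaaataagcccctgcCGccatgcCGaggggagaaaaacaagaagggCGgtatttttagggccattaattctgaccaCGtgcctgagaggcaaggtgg

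Wnt1 held 23 CpG in 250 bases, while Wnt5a, which also lay among the lowest members, held 9. On the side with more H3K9me2, Wnt8b held 5, Fgf14 held 7, Fgf6 held 9 and Bmp4 held 11. A CG was present in 20649 of 22299 matched promoters (92.6%) with a median of 7, and in 67 of the 68 members with a median of 10. Fgf10 is shown at both of its annotated starts, which lie 44908 bases apart: the GENCODE gene record begins at position 118669791 of chromosome 13 with non-coding transcripts, and the RefSeq record begins at position 118714699. Which start had been counted is not known. For 11 of the 68 members the starts of the 2 annotations differed by more than 1 kb, namely Fgf4, Fgf10, Fgf11, Fgf20, Gdf1, Inhba, Inhbe, Tgfb2, Wnt2, Wnt6 and Wnt9b, so base composition at these members is uncertain while their read counts are as deposited.

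The data were reads counted within 1 kb of each start site. Over all promoters the ChIP libraries held 162233 reads in v102 and 229605 in v134, and the input libraries held 619100 and 1084349. The deposited H3K9me2/input ratio is the summed ChIP reads divided by the summed input reads, with no scaling for library size, so its typical value is below 1: its median was 0.162 and the ratio of all reads was 0.230. Levels are also given as a log2 ratio scaled by library totals with 1 read added, with a median of −0.31 over all promoters, and as the percentile of that ratio among the 26354 promoters. The 30 mitochondrial promoters took 14.3% of input reads in v102 and 7.53% in v134, and the values without them are given with the processing. Of the 6 smooth muscle marker promoters, Myh11 and Lmod1 were called below input by the test used for the members, Smtn above, and Acta2, Tagln and Cnn1 neither (percentiles 25.9, 31.1 and 10.5). Of the 4 leukocyte marker promoters Ptprc and Itgam were called above, and of the 4 endothelial and the 4 fibroblast marker promoters Pecam1 and Pdgfra were called below. H3K9me2 at a promoter does not measure how many cells of a type were present, so the labelled cell type could not be checked from this table.

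Most ligand promoters carried little H3K9me2, where a low level in all cells and a high level in a few cells cannot be told apart in tissue. The 68 members together had 185 and 214 ChIP reads in v102 and v134 against 1299 and 2256 input reads, a ratio of 0.112 (95% Wilson interval, counting error only, 0.101 to 0.124) compared with 0.230 over all promoters. Relative to all promoters this was −0.88 in v102 and −1.16 in v134 on the log2 scale (mean −1.02 ± 0.20, SD, n = 2 experiments). The mean log2 ratio lay below that of the median promoter at 55 of 68 members (80.9%), in the lowest 25% at 37, and at or above the median at 13. The count below the median was 50 in v102 alone and 54 in v134 alone. Only Fgf10 and Fgf6 stood at or above the 75th percentile, and they were also the only members in the top 25% of both experiments (2 of 68, against 17.7% of all promoters).

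**Figure D1:**
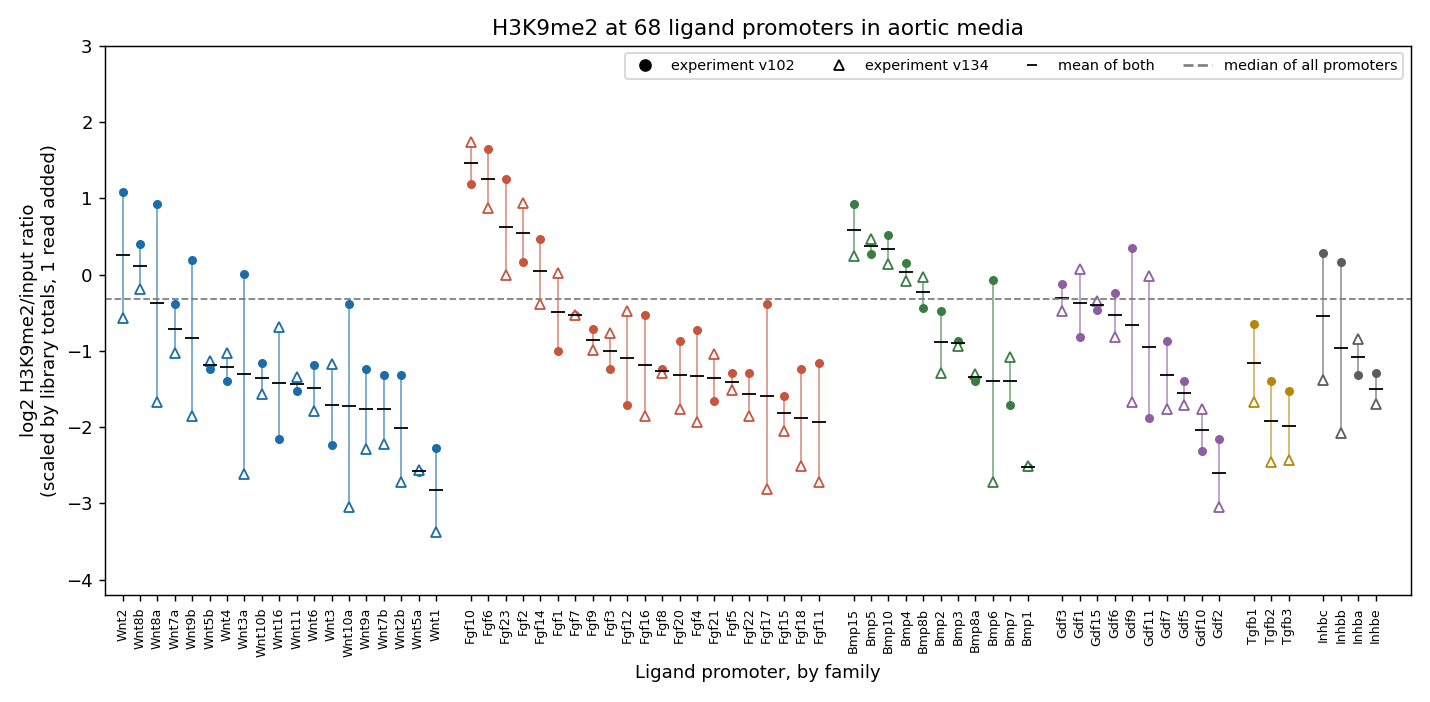
Log2 H3K9me2/input ratio (y axis, scaled by library totals with 1 read added) of each of the 68 ligand promoters (x axis, by family, ordered by mean), with filled circles for v102, open triangles for v134, a bar for the mean and a dashed line at the median of all promoters, −0.31. The means run from −2.83 at Wnt1 to 1.47 at Fgf10, and 55 of the 68 lie below the line.

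Single promoters rested on few reads. Members had 0 to 36 ChIP reads in all, 47 of the 68 had 5 or fewer, and their summed input was between 26 and 84 reads. The order of the members in v102 and v134 had a Spearman rho of 0.402 across the 68 promoters, compared with 0.689 across all 26354, a description of points that share libraries and depth. ChIP and input were compared by edgeR's quasi-likelihood test over all promoters with Benjamini-Hochberg adjustment, and a promoter was called at an adjusted p under 0.05. The test called 2 of 68 members above input (2.94%, against 18.6% of all promoters) and 20 below input (29.4%, against 17.0% of all promoters). At an unadjusted p under 0.05 there were 2 above and 33 below. The share of all promoters at an unadjusted p is not given here or below, so such counts do not show an excess. With the experiment as a block, the 2 calls above input stood and the calls below numbered 7 (10.3%, against 8.30% of all promoters), all of them among the 20, while the other 13 had adjusted p from 0.0510 to 0.128, so the excess of low calls over all promoters was smaller in the paired fit. Scaling by library totals in place of TMM, which shifts the median log2 fold change in the whole table from −0.35 to −0.50, gave 2 above (against 16.3% of all promoters) and 28 below (41.2%, against 21.5%). DESeq2 left 64 of the 68 members without an adjusted p. It called 1 member above (against 33.7% of the promoters with an adjusted p) and 0 below (against 0.323%), with 8 below at an unadjusted p under 0.05.

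Fgf10 and Fgf6 were the members with the most H3K9me2. Fgf10, a mesenchymal growth factor that drives branching of lung and other epithelia, had 8 and 28 ChIP reads in v102 and v134 against 14 and 40 input reads, a ratio of 0.667 (0.439 to 1.01). Its scaled ChIP level exceeded the input in both experiments, with log2 ratios of 1.20 and 1.74. The log2 fold change was 1.68 (SE 0.40, adjusted p = 0.000359 by edgeR's quasi-likelihood test), and it ranked at the 89.0th percentile. The window at the GENCODE start has 34.9% GC and an observed/expected CpG ratio of 0.263, and that at the RefSeq start has 54.3% GC and 0.488. Once the dependence on GC content was taken out, using the GENCODE start, Fgf10 stood at the 52.9th percentile, and using the RefSeq start, a setting added after the data were seen, at the 98.6th, so its rank among promoters of similar GC content depends on the start. Fgf6, a growth factor of skeletal muscle and its repair, had 13 and 11 ChIP reads against 16 and 30 input reads, a ratio of 0.522 (0.320 to 0.850). Here too both experiments lay above their input, with log2 ratios of 1.65 and 0.87, and the log2 fold change was 1.33 (SE 0.46, adjusted p = 0.0165 by edgeR's quasi-likelihood test). Fgf6 lies at chr6, position 127015586 on the plus strand, its annotated starts differ by only 44 bases, and it stood at the 97.0th percentile after removal of the GC trend.

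The other Fgf promoters ranged widely. Fgf2, the basic fibroblast growth factor that stimulates smooth muscle proliferation, had 4 and 16 ChIP reads against 16 and 41 input reads, a ratio of 0.351 (0.212 to 0.581). Its log2 ratio was above 0 in both experiments but the difference did not pass the test (log2 fold change 0.76, SE 0.47, adjusted p = 0.189 by edgeR's quasi-likelihood test). Its window is CpG-rich (observed/expected 0.557), and once the GC trend was taken out it stood at the 93.4th percentile and, with Fgf6, in the top 25% of both experiments. Fgf1, the acidic fibroblast growth factor, had 2 and 8 ChIP reads against 22 and 41, a ratio of 0.159 (0.0824 to 0.306), below the median promoter in v102 and above it in v134. Fgf23, the phosphate-regulating hormone that acts through Klotho, had 9 and 7 ChIP reads against 15 and 37, a ratio of 0.308 (0.177 to 0.535). Only in v102 did it reach the top 25%, and it did not pass the test (adjusted p = 0.363 by edgeR's quasi-likelihood test).

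Of the 21 Fgf promoters, Fgf11, Fgf15, Fgf18 and Fgf22 were called below input (19.0%, against 17.0% of all promoters), a share near the background. Fgf18, a regulator of bone and cartilage growth, had 1 and 0 ChIP reads against 17 and 26 input reads, a ratio of 0.0233 (0.00404 to 0.134, adjusted p = 0.0222 by edgeR's quasi-likelihood test). Fgf11, of the intracellular subfamily that is not secreted, had 1 and 0 against 16 and 30, a ratio of 0.0217 (0.00378 to 0.125, adjusted p = 0.0171 by the same edgeR test). Fgf15, the intestinal hormone that restrains bile acid synthesis, had 1 and 1 against 22 and 38, a ratio of 0.0333 (0.00897 to 0.124, adjusted p = 0.0137 by the same edgeR test). Each of the 3 promoters gave at most 1 read in either ChIP library. Under the block only Fgf15 remained called (1 of 21, 4.76%, against 8.30% of all promoters). Fgf11, Fgf18 and Fgf22 had adjusted p of 0.0600, 0.0679 and 0.0724 in that edgeR fit. Grouped by the subfamilies known from sequence, the pooled ratio was 0.250 (0.168 to 0.372) for Fgf1 and Fgf2 and 0.228 (0.168 to 0.308) for Fgf3, Fgf7, Fgf10 and Fgf22. It was 0.197 (0.134 to 0.291) for Fgf4, Fgf5 and Fgf6, and 0.127 (0.0819 to 0.197) for Fgf15, Fgf21 and Fgf23. It was 0.113 (0.0699 to 0.183) for Fgf11, Fgf12 and Fgf14, 0.0714 (0.0380 to 0.134) for Fgf9, Fgf16 and Fgf20, and 0.0507 (0.0241 to 0.107) for Fgf8, Fgf17 and Fgf18. The Fgf8, Fgf9, Fgf11 and Fgf15 subfamilies lay below all promoters in both experiments, with log2 values of −1.34 and −4.08 for the Fgf8 subfamily, the second of which rests on 1 ChIP read, while the Fgf1 and Fgf7 subfamilies lay below in v102 and above in v134. The spread within a subfamily was wide: in the Fgf4 subfamily, percentiles ran from 18.6 at Fgf5 to 85.9 at Fgf6.

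Wnt promoters were among the least marked. No Wnt promoter was called above input and 9 of 19 were called below (47.4%, against 17.0% of all promoters), namely Wnt1, Wnt2b, Wnt3, Wnt5a, Wnt6, Wnt7b, Wnt9a, Wnt10a and Wnt11. Under the block only the calls at Wnt1 and Wnt5a remained (2 of 19, 10.5%, against 8.30% of all promoters), a share near the background. In that edgeR fit the adjusted p was 0.0510 for Wnt2b, 0.0995 for Wnt3, 0.0554 for Wnt6, 0.0836 for Wnt7b, 0.0856 for Wnt9a, 0.128 for Wnt10a and 0.0989 for Wnt11. Wnt1, a canonical ligand of midbrain and neural crest development, had 1 and 0 ChIP reads against 36 and 48 input reads, a ratio of 0.0119 (0.00208 to 0.0680). It was the lowest of the 68 members, at percentile 0.531, with an adjusted p of 0.000184 by edgeR's quasi-likelihood test. Wnt5a, a ligand of β-catenin-independent signaling that is made by vascular cells, had no ChIP read in either experiment against 22 and 27 input reads. Taking 3 reads over both libraries as the limit that a count of 0 allows, its ratio was at most 0.0612, at least 3.76-fold lower than the ratio of all reads (adjusted p = 0.00156 by edgeR's quasi-likelihood test). The Wilson interval, used for the other members, is wider and reached 0.0784. A count of 0 ChIP reads in both experiments was found at 3 members, Wnt5a, Gdf2 and Bmp1, and at 523 of all promoters (1.98%).

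Other Wnt promoters lay closer to the middle of the table. Wnt2, a canonical ligand of lung and vascular development, had 9 and 3 ChIP reads against 17 and 27 input reads, a ratio of 0.273 (0.146 to 0.511). The experiments differed in side, with log2 ratios of 1.08 in v102 and −0.57 in v134, and the test found no difference from input (adjusted p = 0.603 by edgeR's quasi-likelihood test). Wnt8b, a ligand of the developing forebrain, had 7 and 4 against 22 and 26, a ratio of 0.229 (0.120 to 0.436). Wnt3a, the ligand most used to activate β-catenin in culture, had 4 and 0 ChIP reads against 18 and 28, a ratio of 0.0870 (0.0326 to 0.232). All 4 of its ChIP reads came from v102, and it did not pass the test (adjusted p = 0.194 by edgeR's quasi-likelihood test). The 19 Wnt promoters ran from percentile 0.531 to 65.6, with 17 below the median promoter.

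The 3 Tgfb promoters, whose products promote contractile gene expression and matrix synthesis in smooth muscle, were all low. Tgfb1 had 2 and 1 ChIP reads against 17 and 29 input reads, Tgfb2 had 1 and 0 against 19 and 25, and Tgfb3 had 1 and 1 against 21 and 50. Together they gave 4 ChIP reads in v102 and 2 in v134, against 57 and 104 input reads. Tgfb2, with a ratio of 0.0227 (0.00395 to 0.131), and Tgfb3, with a ratio of 0.0282 (0.00760 to 0.104), were called below input (adjusted p = 0.0199 and 0.00488 by edgeR's quasi-likelihood test), and under the block Tgfb3 remained called while Tgfb2 did not (adjusted p = 0.0610 in that edgeR fit). Tgfb1, with a ratio of 0.0652 (0.0215 to 0.198), did not pass (adjusted p = 0.107 by edgeR's quasi-likelihood test). The share called below was thus 2 of 3 (66.7%, against 17.0% of all promoters), and 1 of 3 under the block (33.3%, against 8.30%). Tgfb2 is among the members whose annotated starts differ by more than 1 kb. After removal of the GC trend, Tgfb3 stood at the 9.40th, Tgfb2 at the 13.5th and Tgfb1 at the 53.9th percentile.

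Among Bmp promoters the level of the mark went with CpG content. Of the 11, 1 was called below input (Bmp1, 9.09%, against 17.0%) and none above. Bmp4, a ligand that induces mesoderm and is made in the arterial wall under disturbed flow, had 6 and 5 ChIP reads against 23 and 29 input reads, a ratio of 0.212 (0.112 to 0.401). Its log2 fold change was 0.01 (SE 0.56, adjusted p = 0.992 by edgeR's quasi-likelihood test), which changed sign with library totals (−0.13, adjusted p = 0.866) and with the block (−0.02, adjusted p = 0.985). Bmp10, a heart-derived ligand of the endothelial receptor Acvrl1, had 5 and 10 against 15 and 46, a ratio of 0.246 (0.141 to 0.429), and lay above the median promoter in both experiments. Bmp2, an osteogenic ligand linked to vascular calcification, had 2 and 1 against 15 and 22, a ratio of 0.0811 (0.0265 to 0.248). Bmp6, an osteogenic and iron-regulating ligand, had 5 and 0 against 23 and 30, a ratio of 0.0943 (0.0388 to 0.229), all from v102. Bmp7, a ligand of kidney development, had 1 and 2 against 24 and 29, a ratio of 0.0566 (0.0187 to 0.171, adjusted p = 0.0572 by edgeR's quasi-likelihood test). None of these 3 passed the test. Bmp1 had 0 and 0 ChIP reads against 21 and 26 input reads. By the 3-read limit its ratio was at most 0.0638, at least 3.60-fold lower than the ratio of all reads (adjusted p = 0.00197 by edgeR's quasi-likelihood test), while its Wilson interval reached 0.0817. In spite of its name, Bmp1 is a procollagen-processing metalloprotease and not a ligand of the superfamily. It stays in the Bmp counts and pooled values because members were taken by symbol, and no other Bmp promoter was called.

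The Bmp promoters with an observed/expected CpG ratio under the median of all matched promoters, 0.440, were Bmp4, Bmp5, Bmp10 and Bmp15. All 4 lay above the median promoter, at percentiles 59.9 to 73.3, with 20 and 29 ChIP reads against 65 and 131 input reads, a pooled ratio of 0.250 (0.183 to 0.341). The other 7 had 15 and 18 ChIP reads against 145 and 228, a pooled ratio of 0.0885 (0.0621 to 0.126), and 6 of them lay below the median promoter. The difference held in each experiment, with pooled log2 values relative to all promoters of 0.23 and 0.06 for the CpG-poor and −1.34 and −1.42 for the CpG-rich Bmp promoters. After removal of the GC trend the CpG-poor promoters spread out. Bmp5, with 37.3% GC, went to the 21.4th percentile, while Bmp10 stood at the 54.0th, Bmp15 at the 64.1th and Bmp4 at the 73.5th. The median was 59.05 for the CpG-poor and 45.1 for the CpG-rich Bmp promoters. The same split gave pooled ratios of 0.214 for CpG-poor and 0.0891 for CpG-rich Fgf promoters, and of 0.125 and 0.0598 for Wnt promoters. For Gdf promoters they were 0.110 and 0.0800, with log2 values relative to all promoters of −1.20 and −1.26 in v102 and of −0.97 and −1.69 in v134. This split by CpG content was chosen after the values were seen, and it uses the GENCODE starts. At the RefSeq starts Fgf4, Fgf10 and Gdf1 would be CpG-rich and Wnt2, Wnt6 and Wnt9b CpG-poor. Fgf10, whose counted start is not known, had 36 ChIP reads, with a CpG ratio of 0.263 at the GENCODE and 0.488 at the RefSeq start. Pooled ratios by family at the RefSeq starts are not given, so the Fgf, Wnt and Gdf contrasts hold for the GENCODE starts only.

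Of the 10 Gdf promoters, Gdf2, Gdf5 and Gdf10 were called below input (30.0%, against 17.0%). Gdf2 encodes Bmp9, a circulating ligand of endothelial cells, and had 0 and 0 ChIP reads against 16 and 38 input reads. By the 3-read limit its ratio was at most 0.0556, at least 4.14-fold lower than the ratio of all reads (adjusted p = 0.00101 by edgeR's quasi-likelihood test), while its Wilson interval reached 0.0711. Gdf10, known as Bmp3b, had 0 and 1 against 18 and 31, a ratio of 0.0204 (0.00355 to 0.117, adjusted p = 0.0126 by the same edgeR test). Under the block both calls remained, and Gdf5 had an adjusted p of 0.0830 in that edgeR fit. Gdf15, a stress-induced cytokine, had 3 and 6 ChIP reads against 20 and 41, a ratio of 0.148 (0.0743 to 0.293), near the median promoter in both experiments (47.5th percentile, adjusted p = 0.520 by edgeR's quasi-likelihood test). The Gdf9 window overlaps that of Uqcrq and the Fgf21 window that of Fut1, so these members share reads with a neighbour.

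Of the activin β chains, Inhbe was called below input, with 2 and 2 ChIP reads against 27 and 45 input reads (ratio 0.0556, 0.0211 to 0.146, adjusted p = 0.0249 by edgeR's quasi-likelihood test), and under the block it was not (adjusted p = 0.0554 in that edgeR fit). Inhba, the chain of activin A, had 1 and 3 against 18 and 33, a ratio of 0.0784 (0.0295 to 0.209, adjusted p = 0.136 by edgeR's quasi-likelihood test). Inhbc, which with Inhbe is expressed in liver, had 6 and 3 against 21 and 48, a ratio of 0.130 (0.0660 to 0.258). Its log2 ratio was above the median promoter in v102 and below it in v134. Both Inhba and Inhbe are members with starts more than 1 kb apart in the annotations.

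The families were then compared by pooling reads over their promoters. Relative to all promoters, the log2 ratio of the Fgf family was −0.64 in v102 and −0.57 in v134 (mean −0.61 ± 0.05, SD, n = 2 experiments), and that of the Bmp family −0.65 and −0.69 (−0.67 ± 0.03). These neighbours in the order differed by little in either experiment. The Gdf family gave −1.22 and −1.27 (−1.25 ± 0.03), the Inhb family −0.73 and −1.94 (−1.33 ± 0.86), the Wnt family −1.10 and −2.27 (−1.68 ± 0.83) and the Tgfb family −1.90 and −3.46 (−2.68 ± 1.10). Fgf and Bmp stood first and second and Tgfb last in both experiments, while the order of Gdf, Inhb and Wnt changed between them. The Wnt family gave 44 and 26 ChIP reads against 359 and 593 input reads, a ratio of 0.0735 (0.0577 to 0.0937), and the Fgf family 68 and 100 against 404 and 702, a ratio of 0.152 (0.129 to 0.179). The 2 intervals do not overlap, but they cover counting error only. Fgf10 and Fgf6 alone gave 36 and 24 of the Fgf ChIP reads, and the counted start of Fgf10 is not known. A pooled Fgf value without these promoters alone is not given. How far the gap to Wnt and the first place of Fgf rest on them was thus not tested. A minimum of 20 reads in each input leaves out both, along with other members. With it the pooled value was −0.43 for Gdf (4 members), −0.65 for Bmp (5), −0.94 for Fgf (10) and −1.61 for Wnt (5). Fgf no longer stood first in that setting. By the median percentile over members after removal of the GC trend, Fgf (34.3) lay below Wnt (40.1). The families were not tested against each other, since with 2 experiments the smallest two-sided p of an exact sign-flip test is 0.50.

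**Figure D2:**
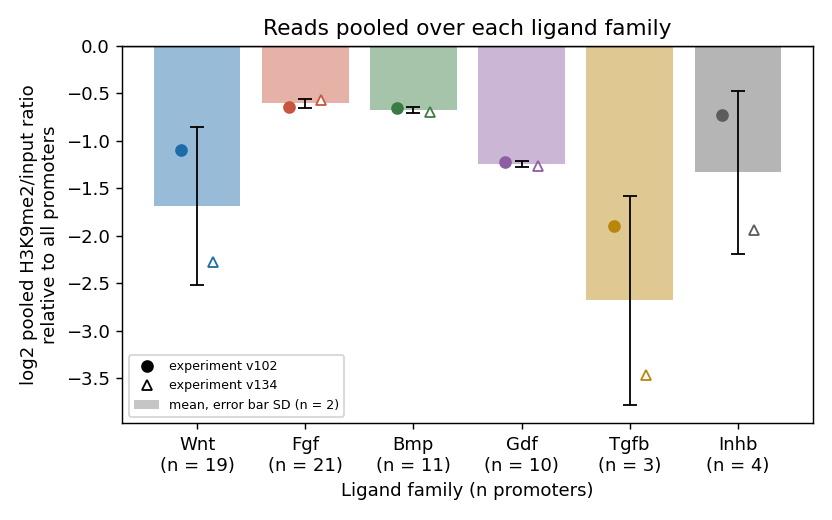
Pooled log2 H3K9me2/input ratio of each ligand family relative to all promoters (y axis), with circles for v102, triangles for v134, and bars and error bars for the mean and SD of the 2 experiments. Fgf (−0.61) and Bmp (−0.67) lie nearest to 0 and Tgfb (−2.68) lowest, and the Wnt, Tgfb and Inhb values differ between the experiments by more than 1 on the log2 scale.

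The family order depended on how members were weighted. The median percentile over members was 18.04 for Wnt, 24.0 for Fgf, 33.2 for Bmp, 35.5 for Gdf, 7.79 for Tgfb and 29.1 for Inhb. After removal of the GC trend these medians were 40.1, 34.3, 46.1, 46.0, 13.5 and 35.1, and 43 of the 68 members still lay below the median. Among the 57 members whose annotated starts lie within 1 kb of each other, a restriction chosen after the data were seen, the pooled value was −1.87 for Wnt, −0.73 for Fgf and −0.67 for Bmp. Of these 57, 1 promoter (Fgf6) was called above and 16 below input (28.1%), against 18.6% and 17.0% of all promoters.

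The ligand promoters were richer in CpG than the table as a whole, and the mark went with this. The median observed/expected CpG ratio within 1 kb of the start was 0.557 over the members and 0.440 over the 22299 promoters matched to 1 annotated gene, and GC content was 57.2% and 50.9%. The 42 members at or above a ratio of 0.440 had 77 and 80 ChIP reads against 792 and 1329 input reads, a pooled ratio of 0.0740 (0.0630 to 0.0870), with 0 called above and 15 below (35.7%). All CpG-rich promoters had a pooled ratio of 0.160, and 5.03% of them were called above and 27.1% below. The 26 CpG-poor members had a pooled ratio of 0.169 (0.147 to 0.193), with 2 called above (7.69%) and 5 below (19.2%). All CpG-poor promoters had 0.340, with 30.1% called above and 8.04% below. Within both classes the members thus had a lower pooled ratio than all promoters of the class. Their share of low calls was also larger in the fit without the block, and shares with the block are not given. GC content was not matched. Its median was 59.97% for CpG-rich members against 55.02% for their class, and 51.97% against 46.13% for the CpG-poor. Ranked with the GC dependence taken out, CpG-rich members had a median percentile of 42.6, against 45.05 for all CpG-rich promoters. For CpG-poor members it was 40.02 against 55.47, and their median CpG ratio was 0.306 against 0.212. Across the 68 members the log2 ratio had a Spearman rho of −0.435 with GC content and −0.289 with the CpG ratio, against −0.549 and −0.519 across the 22299 promoters, where all points share the same libraries and their amplification. At the RefSeq starts, a setting added after the data were seen, 41 members were CpG-rich with a pooled ratio of 0.0897 (0.0773 to 0.104). Of these, 1 was called above (Fgf10) and 13 below. The other 27 were CpG-poor with a ratio of 0.145 (0.125 to 0.167), 1 called above and 7 below. Shares of all promoters in classes made at the RefSeq starts are not given, so these calls have no background beside them. Whether base composition plays a part in these differences was not tested.

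**Figure D3:**
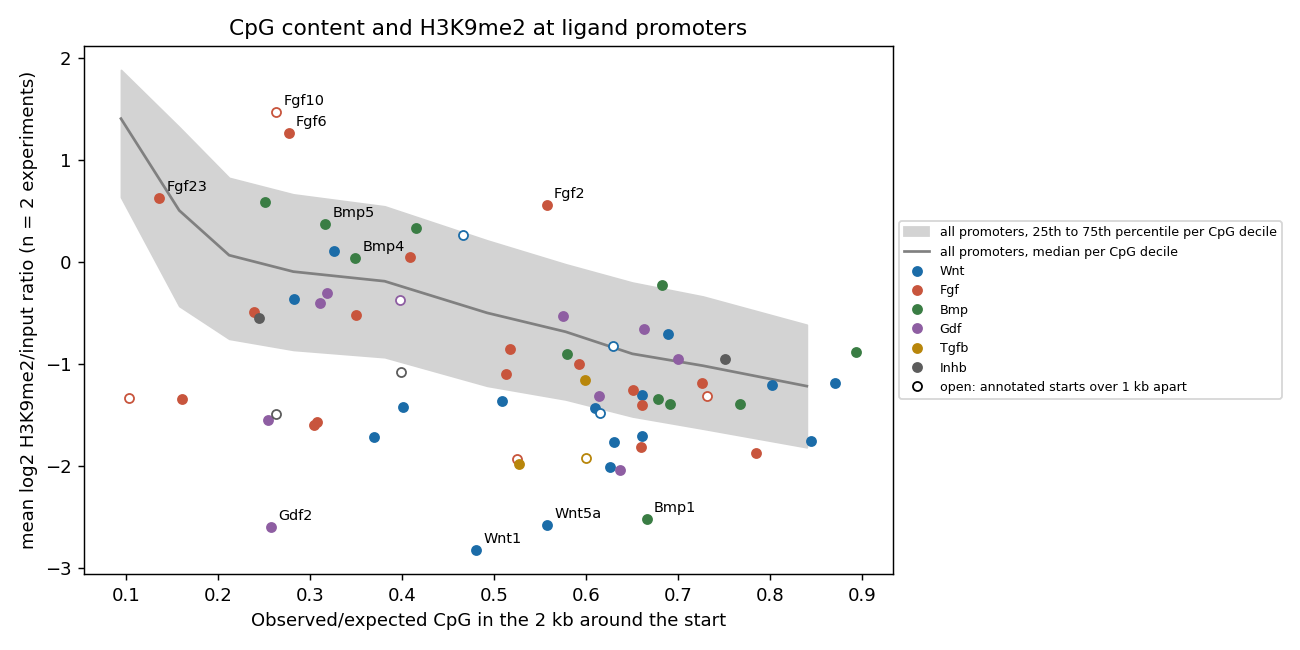
Mean log2 H3K9me2/input ratio (y axis, n = 2 experiments) against the observed/expected CpG ratio in the 2 kb around the GENCODE start (x axis) for the 68 ligand promoters, colored by family, with open circles for members whose annotated starts differ by more than 1 kb. The grey band and line are the quartiles and median of all matched promoters per CpG decile, Fgf10, Fgf6 and Fgf2 lie clearly above the band, and Gdf2, Wnt1, Wnt5a and Bmp1 lie well below it.

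Several ligand genes lie side by side in the genome, and their H3K9me2 ratios did not differ detectably. For the 10 pairs of members with starts within 100 kb, the reads of both experiments were compared by Fisher's exact test (two-sided, Benjamini-Hochberg over the 10 pairs, counting error only). No pair passed, with adjusted p between 0.687 and 1.0 and 0 pairs at an unadjusted p under 0.05. The Fgf6 and Fgf23 promoters, 57.3 kb apart on chromosome 6, had ratios of 0.522 and 0.308. Gdf10 and Gdf2, 17.5 kb apart on chromosome 14, had 1 and 0 ChIP reads in all. Wnt10b and Wnt1, 11.7 kb apart on chromosome 15, had 2 and 1 in all, and Wnt10b, with 1 and 1 ChIP reads against 16 and 27 input reads, had a ratio 3.91 times that of Wnt1. Wnt6 and Wnt10a, 19.6 kb apart on chromosome 1, had 4 and 3 ChIP reads in all, Wnt6 with 2 and 2 against 25 and 48 and Wnt10a with 3 and 0 against 19 and 38. Wnt3a and Wnt9a, as well as Wnt9b and Wnt3, form the chromosome 11 pairs, in which Wnt9a had 1 and 0 ChIP reads, Wnt9b 2 and 1, and Wnt3 0 and 2. Distances are between GENCODE starts, and the RefSeq starts of Fgf4, Inhbe, Wnt6 and Wnt9b lie more than 1 kb away. At the RefSeq starts, positions 103775272 for Wnt9b and 103774175 for Wnt3, the windows of that pair would overlap and share reads. On chromosome 7, Fgf3 had 1 and 4, Fgf4 had 2 and 1 and Fgf15 had 1 and 1 ChIP reads, and on chromosome 10 Inhbe had 2 and 2 and Inhbc 6 and 3. A difference as large as that between Wnt10b and Wnt1 was therefore not detectable at this depth.

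Receptors, inhibitors and targets of the same pathways were counted by the same test, without the block. Counts with the block are not given for these lists. At the 68 ligand promoters the block took the share called below from 29.4% to 10.3%, against 17.0% and 8.30% of all promoters. None of the 84 genes was called above input by edgeR, with 0 at an unadjusted p under 0.05, while DESeq2 gave an adjusted p to only 2 of them and called 0. Of 15 Wnt receptors and co-receptors 4 were called below (26.7%), among them Lrp6 with 2 and 0 ChIP reads against 23 and 43 input reads (adjusted p = 0.00777 by edgeR's quasi-likelihood test). Of 13 secreted Wnt inhibitors 3 were called below (23.1%), and of 8 Wnt targets 3 (37.5%), including the feedback regulator Axin2 with 0 and 1 against 12 and 32. Of 7 Fgf receptors and co-receptors 1 was called below (14.3%), the receptor Fgfr2, with 3 and 1 ChIP reads against 25 and 48, and pooled over this list the log2 ratio relative to all promoters was 0.20 in v102 and −1.67 in v134. Of 8 measured Fgf targets and feedback inhibitors 5 were called below (62.5%), namely the Sprouty and Spred genes Spry1, Spry4, Spred1 and Spred2 and the transcription factor Etv5. Of 14 Tgfb superfamily receptors 7 were called below (50.0%), including the receptor Bmpr2 with 0 and 1 against 18 and 26. Of 12 measured secreted inhibitors of the superfamily 2 were called below (16.7%) and of 9 targets 5 (55.6%), including the inhibitory Smad genes Smad6, with 0 and 0 ChIP reads against 25 and 31, and Smad7, with 1 and 4 against 27 and 85. Of 11 related ligands that the symbol rule leaves out, Lefty1 and Nrtn were called below (18.2%). Against 17.0% of all promoters, the shares for Fgf receptors, secreted superfamily inhibitors and the related ligands were close to the background. The share for Wnt receptors, whose median CpG ratio was 0.722, was close to the 27.1% of all CpG-rich promoters. That for secreted Wnt inhibitors (median CpG ratio 0.483) lay between 17.0% and 27.1%. Wnt targets, Fgf targets, superfamily receptors and superfamily targets lay above 27.1%, with median CpG ratios between 0.714 and 0.796. Whether base composition plays a part in these shares was not tested. The genes of these lists named here were picked after their values were seen.

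**Figure D4:**
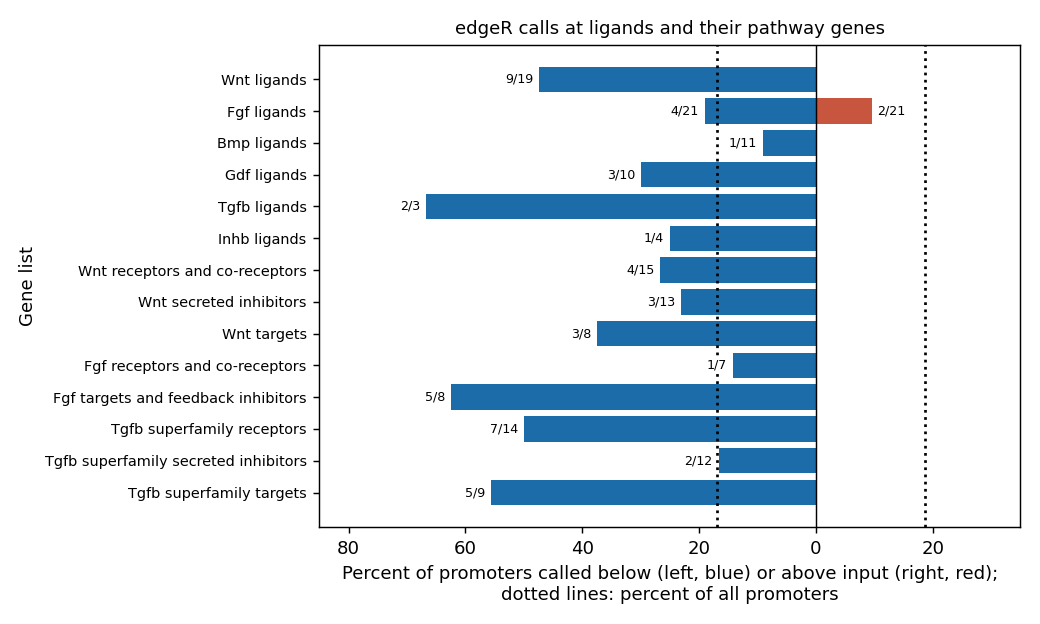
Percent of promoters called below input (bars to the left) or above input (bars to the right) by edgeR's quasi-likelihood test in each ligand family and pathway list, with the number called of the number measured beside each bar and dotted lines at 17.0% and 18.6% for all promoters. The calls are those of the fit without the block. Calls above input occur in the Fgf ligands alone (2 of 21), and the left bars run from 9.09% for Bmp (Bmp1 alone) to 66.7% for Tgfb ligands.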

How the data were processed

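ChIP and input libraries of 2 experiments (n = 4 libraries) were analysed. Per the labels, the authors trimmed reads with Trim Galore 0.4.2 and cutadapt 1.9.1 and aligned them to GRCm38 with Bowtie2 2.2.7, and they counted reads within 1 kb of each start site in SeqMonk. The deposited counts are raw reads per promoter, and the deposited ratio is summed ChIP over summed input counts without scaling. The lowest summed input was 21 reads. The annotation release and the handling of duplicate reads are not given in the sources used here, so positions and base composition came from GENCODE M21, with RefSeq starts for comparison, and 22299 symbols outside the mitochondrial genome matched 1 gene. Sequences were read from the RefSeq copy of GRCm38, and 1 further promoter sequence is not reported here. Columns of other samples numbered 0.

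The log2 ratio was computed per experiment with 1 read added and scaled by the library's promoter total, which is not its sequencing depth. ChIP was compared with input over all promoters by edgeR 4.0.16 (R 4.3.3), quasi-likelihood test, TMM, no block, Benjamini-Hochberg threshold 0.05, and by DESeq2 1.42.0 as an alternative. The common dispersion was 0.0192. On counts simulated for the 26354 promoters of this comparison, edgeR called 47 of 50 raised 4-fold and 5 of 50 raised 2-fold. It called 1 of 50 lowered to 0.5, 6 of 50 lowered to 0.25 of their level, and 3 of 26154 unchanged. Within the simulation, lowered promoters were thus called less often than those raised by the same factor. Far more promoters were called in the real data (18.6% above and 17.0% below input), which makes the adjustment less strict there. The simulated shares therefore do not give the power of the real comparison. Wilson intervals at 95% and the 3-read limit cover counting error only, because without molecular identifiers PCR copies cannot be told from separate molecules. The GC trend was removed with a lowess fit (fraction 0.3). Each input belongs to the ChIP of its experiment by the study's methods, so experiments are pairs, and the differences between experiments of ChIP and of input had a correlation of 0.104 across promoters. Tables were made in Python 3.11.15 (scipy 1.17.1, pandas 2.3.3, numpy 2.4.6, statsmodels 0.14.6).

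Members, gene lists and tests were chosen with earlier results of these data known. Named in full are members called above input, the 2 lowest of each family of at least 5, ligands of the vessel wall, and neighbours within 100 kb, and others named were chosen after their values were seen. Alternatives were library totals, the block, DESeq2, at least 20 reads in each input, no mitochondrial promoters, 5 reads added, the GC trend, and each experiment alone. Expression data of the study were not used here.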

Additional observations from a re-analysis of the deposited data

How the results depend on the processing

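The 2 calls above input (Fgf6 and Fgf10) stood with library totals, with the block and without mitochondrial promoters. They were 2.94% of the members, against 16.3%, 15.8% and 18.9% of all promoters in these fits. DESeq2 called 1 (Fgf10, with Fgf6 at an adjusted p of 0.0979), against 33.7% of the promoters with an adjusted p. A minimum of 20 reads per input library left 0 calls by edgeR, against 17.5% of all promoters in that fit. Neither Fgf6 nor Fgf10 has 20 input reads in v102, and 0 of the remaining 27 members had an unadjusted p under 0.05 in that direction. Restricted to members with starts within 1 kb, 1 was called, since Fgf10 is left out. The 20 calls below input became 28 with library totals (41.2%, against 21.5% of all promoters) and 19 without mitochondrial promoters (27.9%, against 16.2%). With starts within 1 kb they became 16 (28.1%, against 17.0%). They became 7 in the paired fit with the experiment as a block (10.3%, against 8.30% of all promoters). With the minimum of 20 they became 5 of 27 (18.5%, against 12.0%). All of these were among the 20 calls. They became 0 with DESeq2 (against 0.323% of the promoters with an adjusted p), which gave no adjusted p for 64 of the 68 members and an unadjusted p under 0.05 at 8. The cause was not tested beyond the smaller number of members in the filtered fits. The block changed no call above input. No edgeR fit without one experiment was made, since 1 library in each arm leaves no residual degrees of freedom.

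In the top 25% of both experiments there were 2 members, and 2 with 5 reads added. There were 0 with the minimum of 20, 1 with starts within 1 kb, and between 3 (v134) and 6 (v102) in 1 experiment alone. With the GC trend removed there were also 2 (against 13.9% of the matched promoters), but these were Fgf2 and Fgf6 in place of Fgf6 and Fgf10. At the members' RefSeq starts, chosen after the data were seen, there were 3 (Fgf2, Fgf6 and Fgf10). Adding 5 reads moved the median log2 ratio of all promoters from −0.31 to 0.34 and that of 24 of 35 named members by more than their SD, while 53 of 68 members lay below the median promoter, against 55. No neighbouring pair passed in either experiment alone.

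Every family stayed below all promoters under each alternative, with these values of the pooled log2 ratio. In 1 experiment alone it ran from −2.27 to −1.10 for Wnt, −0.64 to −0.57 for Fgf, −0.69 to −0.65 for Bmp, −1.27 to −1.22 for Gdf, −3.46 to −1.90 for Tgfb and −1.94 to −0.73 for Inhb. Without mitochondrial promoters it was −0.77 for Fgf, −0.84 for Bmp and −1.41 for Gdf. With the minimum of 20 it was −0.94 for Fgf and −0.43 for Gdf, and with starts within 1 kb −0.73 and −1.40. As a median over members, relative to the median promoter, it was −0.87 for Fgf, −0.57 for Bmp and −0.49 for Gdf. With the GC trend removed this median was −0.26 for Wnt, −0.42 for Fgf, −0.10 for Bmp, −0.10 for Gdf, −1.13 for Tgfb and −0.40 for Inhb. The causes were not tested. Of the named members, Bmp4 changed sign with library totals (adjusted p = 0.866 by edgeR) and with the block (adjusted p = 0.985 by edgeR). Bmp7, Fgf4 and Wnt10b passed with library totals (adjusted p = 0.0357, 0.0383 and 0.0415 by edgeR), while Fgf11 and Fgf18 missed the threshold with the block (0.0600 and 0.0679). With 4 libraries and 5 or fewer ChIP reads at 47 of 68 members, depth limits what can be said of single promoters.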
